A study of Homo sapiens with 12 samples.

Results

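The nuclear genes for the subunits of oxidative phosphorylation (OXPHOS) were followed in 4 lines of A549 cells, a human lung adenocarcinoma cell line. Members were the rows of the count table whose gene symbol fitted the naming patterns of NADH dehydrogenase (complex I), succinate dehydrogenase (complex II), the cytochrome bc1 complex (complex III), cytochrome c, cytochrome c oxidase (complex IV) and ATP synthase. The patterns used names and no measured value. They found 83 of the 60623 rows, of which 37 belong to complex I, 4 to complex II, 9 to complex III, 17 to complex IV and 15 to ATP synthase, with CYCS as the gene for cytochrome c. NDUFA4, which carries a complex I name, was counted with complex IV, where its protein is found. All 83 are annotated as protein-coding, and they lie on 22 chromosomes.

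All 4 lines came from the same A549 cells, infected with lentivirus made from the vector pLV-EF1a-IRES-Hygro and selected for 72 h with 200 µg/ml hygromycin. V received the empty vector and WT received HA-tagged wild-type AHR, the aryl hydrocarbon receptor, a ligand-activated transcription factor. SA received HA-AHR whose serine is replaced by alanine (S489A), which cannot be phosphorylated, and SD received HA-AHR with aspartate at the same residue (S489D), a stand-in for the phosphorylated form. The vector is named for the EF1a promoter, and all 4 lines kept their own AHR gene. Only 1 infected line stands for each construct, and what belongs to the line cannot be told apart from what belongs to the construct. Each line has 3 libraries from poly(A)-enriched RNA, labelled biological replicates. How the replicates were grown is not given in the sources used here, so p-values measure the spread between these libraries.

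OXPHOS makes most of the ATP of a respiring cell. Complex I takes electrons from NADH and complex II takes them from succinate, complex III passes them to cytochrome c, and complex IV hands them to oxygen. Complexes I, III and IV pump protons out of the mitochondrial matrix, and ATP synthase uses their return to make ATP. Complex II is encoded wholly in the nucleus, while the other complexes also hold subunits made from mitochondrial DNA. Transcription of the nuclear genes is known to depend on NRF1, on GABP (a factor of the ETS family), on YY1 and on the coactivator PGC-1α, the product of PPARGC1A.

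Library totals ran from 7844045 to 11765576 expected counts (median 9880852). AHR, which the constructs encode, was at 65.8 to 74.3 CPM, counts scaled to the library total, in the V libraries and 202 to 285 CPM in the 9 libraries with AHR constructs. Of the 6 epithelial markers, KRT7, KRT8, KRT18 and CDH1 were abundant, EPCAM was at or under 1.75 CPM and KRT19 at or under 0.536 CPM. KRT8, KRT18 and CDH1 separated V from the lines with AHR constructs without overlap, at 3232 to 3330.2, 2655 to 2800.2 and 160.4 to 179 CPM in V and 2359 to 2620.2, 1908 to 2142 and 103 to 132 CPM in the others. The summed level of the 6 was between 5767 and 8017 CPM. The lung lineage genes NKX2-1, SFTPB and SFTPC were under 1 CPM, while NAPSA was between 2.795 and 4.51 CPM. Of the markers of other cell types, PTPRC, CD3E, PECAM1, VWF, COL3A1 and DCN were under 1 CPM in every library, CD68 was between 21.7 and 36.7 CPM and COL1A1 was 9.89 to 13.1 CPM in V and 5.34 to 8.997 CPM in the other lines. The part of these marker differences in the comparisons with V was not tested. Among the libraries, V replicate 3 and SD replicate 1 stood low for many of the subunits described here, and the counts that rest on them are also given without them.

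The nuclear OXPHOS subunits were well expressed, and together they took 0.675% to 0.751% of all counts in a library. Of the 83 genes, 78 passed the filter on low counts in all 6 pairwise comparisons of the lines. Their mean level over the 12 libraries had a median of 70.98 CPM, against 25.8 CPM over all 14416 genes tested in every comparison. Replicates agreed closely, with a median within-line coefficient of variation of 6.04% for the subunits and 8.19% for all genes tested. Genes with more reads have less counting error, and the subunits were the more abundant set. In bulk RNA such as this, fewer cells of a kind and less RNA per cell cannot be told apart.

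On the TPM scale, which divides reads by the length of a transcript, here the canonical one, ATP5F1B, the catalytic beta subunit of ATP synthase, was the highest member at 955 ± 31.05 TPM (SD, n = 12 libraries). COX6A1 followed at 722 ± 40.3 TPM and COX8A at 682 ± 39.9 TPM, both small subunits of complex IV. Those 2 levels lie within their spread of each other. Division by coding length gave another order, with COX8A first at 868 ± 46.9 TPM and ATP5F1B at place 7. CYCS moved between these scales from place 62 to place 4, since its canonical transcript has 5432 nt and its coding part 315 nt. By canonical length the median tested subunit of complex IV stood at 247 TPM, of complex III at 176, of ATP synthase at 156, of complex II at 142 and of complex I at 124 TPM. By coding length the medians of the tested subunits were 383 TPM in complex IV and 343 in complex III. ATP synthase was at 192, complex I at 121 and complex II at 114 TPM, so complex I and complex II changed places. For complex IV these medians cover 12 of 17 members.

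Complex IV has subunits with a second gene that is used in muscle, testis or lung, and these libraries held mostly reads of the common form of each. COX4I2, the form known from lung, had no read in any library, while its partner COX4I1 was between 197 and 227 CPM. COX6A2 and COX7B2, known from muscle and testis, and COX8C, known from testis, were likewise without a read in all 12 libraries. Their partners COX6A1, COX7B and COX8A were at 163 to 197, 66.2 to 86.95 and 142 to 172 CPM. COX7A1, the muscle form, had 3 counts in all, from SA replicate 2 and SD replicate 1, against 51.00 to 60.8 CPM for COX7A2. A count of 0 allows up to 3 counts, which is 0.255 to 0.382 CPM in these libraries, and this limit covers counting error only. These are the 5 members that failed the filter. COX6B2, the testis form of COX6B1, passed it at 1.15 to 2.81 CPM beside 139 to 159.96 CPM for COX6B1.

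Among the 3 lines with AHR constructs, no nuclear OXPHOS subunit passed the test for a difference. SD against WT and SD against SA set the phosphomimetic form beside the others, and WT against SA sets the phosphorylatable serine beside alanine. AHR was also higher in WT than in SA and SD. In these comparisons with WT, the form of AHR and its level cannot be told apart. With edgeR's quasi-likelihood test and adjusted p-values under 0.05, 0 of 78 subunits were called in SD against WT, where 0.708% of all genes tested were called. The count was also 0 of 78 in SD against SA, with 0.22% of all genes called, and 0 of 78 in WT against SA, with 0.0803% called. At shares this low, fewer than 1 of 78 genes would be called at the rate of all genes, so a count of 0 does not set the subunits apart. At an unadjusted p under 0.05 there were 4, 3 and 6 subunits, or 5.13%, 3.85% and 7.69%, where all genes gave 10.6%, 8.52% and 7.31%. DESeq2's Wald test also called 0 in each of these comparisons.

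The size of the differences that remain possible is small for most subunits. In SD against WT, the 95% interval of 77 of 78 subunits lay wholly within a 1.5-fold change either way, the exception being COX6B2, the least abundant subunit tested. For SD against SA, and likewise for WT against SA, it held for 76 of 78, the exceptions being COX6B2 and NDUFA7. Over all genes tested, 73.9%, 73.7% and 74.01% had such an interval. The median log2 fold change over the subunits was 0.0015 (SD against WT), 0.00036 (SD against SA) and 0.02 (WT against SA). All genes tested had medians of -0.0008, 0.00066 and -0.0015. The subunits split about evenly, with 40 of 78 higher in SD than in WT, 39 higher in SD than in SA and 43 higher in WT than in SA.

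**Figure D1:**
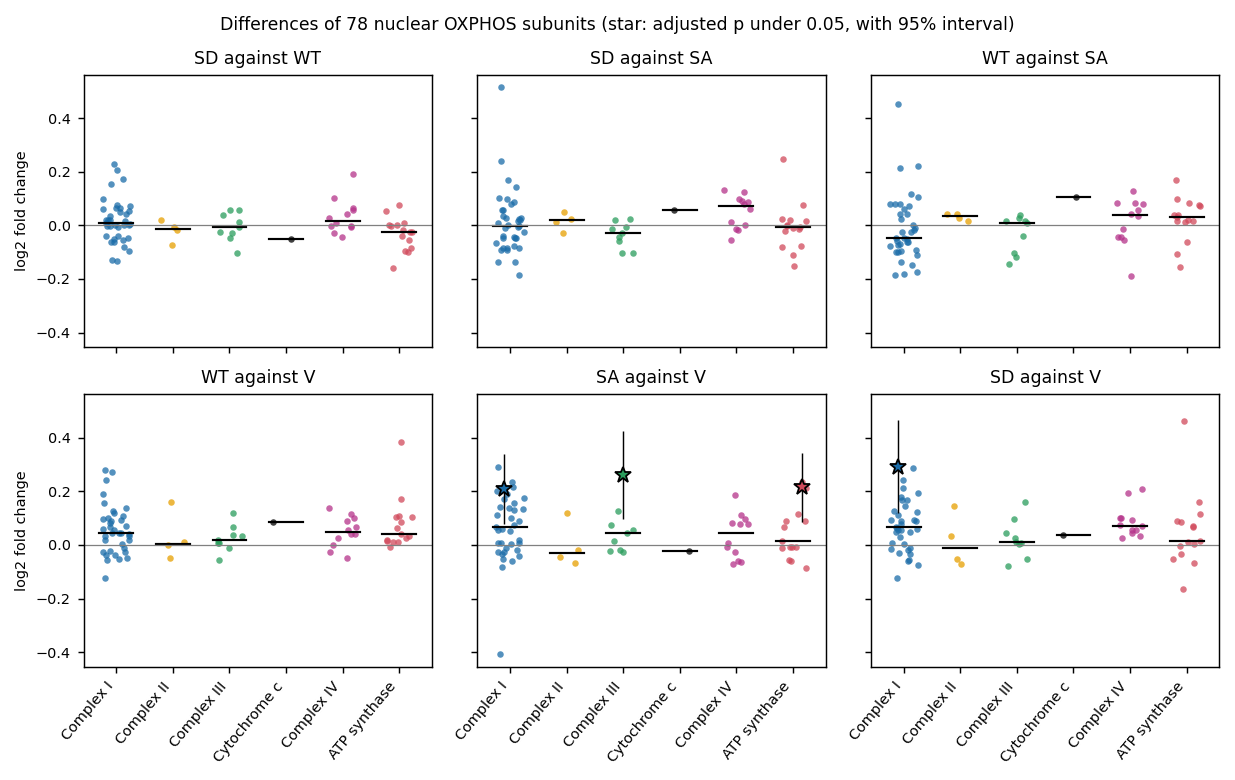
Log2 fold change (vertical axis) of the 78 nuclear OXPHOS subunits that were tested, by complex (horizontal axis), in the 6 comparisons of A549 lines. Each point is a gene, black lines are medians of a complex, and stars with 95% intervals mark the 3 subunits called in SA against V and NDUFA2 in SD against V. The medians of all 6 groups lie near 0, and the isolated complex I point in the SA panels is NDUFA7.

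NDUFA7, an accessory subunit of complex I, showed the largest fitted differences among the AHR lines. Its levels were 13.9, 15.97 and 12.01 CPM in SA, 16.01, 18.5 and 22.8 CPM in WT and 20.1, 18.2 and 21.6 CPM in SD. All SA libraries lay below all SD libraries, while the highest SA and the lowest WT library were level. The difference did not pass the test for SD against SA (log2 0.52, SE 0.129, 95% interval 0.25 to 0.79, adjusted p = 0.136) or for WT against SA (log2 0.45, SE 0.1396, 95% interval 0.16 to 0.74, adjusted p = 0.431). V, at 16.5, 20.1 and 19.1 CPM, was above SA in all libraries, with log2 -0.41 and adjusted p = 0.0593 for SA against V. With every gene of at least 1 count kept, the SD against SA difference did pass, at adjusted p = 0.0188, and SA against V passed without SA replicate 2, at adjusted p = 0.0394.

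The reads of NDUFA7 could not be assigned to it alone. The gene shares 452 of its 1392 exonic bases with a readthrough gene on the same strand, ENSG00000167774. That gene was at 5.41, 2.73 and 7.07 CPM in SA, against 1.75, 0 and 1.16 CPM in V, 1.52, 0 and 0 CPM in WT and 1.101, 3.11 and 1.25 CPM in SD. The SA libraries were thus low in NDUFA7 and, in replicates 1 and 3, high in the gene that overlaps it. With both genes counted together, SA stood at 19.04 ± 0.321 CPM (SD, n = 3), V at 19.5 ± 1.15, WT at 19.6 ± 2.81 and SD at 21.8 ± 0.882 CPM. The difference then shrank to log2 0.20 in SD against SA, 0.04 in WT against SA and -0.04 in SA against V, with adjusted p-values of 0.624, 0.960 and 0.903. This count was chosen after the data were seen.

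Other subunits at the ends of these comparisons differed by less. In SD against WT, ATP5F1C, the gamma subunit that turns inside ATP synthase, was lowest at log2 -0.16, with 107, 113 and 117 CPM in SD and 128, 127 and 121 CPM in WT. All SD libraries were below all WT libraries, and the adjusted p was 0.284. NDUFS5 and NDUFAB1, the mitochondrial acyl carrier protein held in complex I, came next at -0.13 and -0.13, though NDUFAB1 was at -0.0019 without SD replicate 1. NDUFA2, NDUFA1 and COX6B2 were at the upper end, at 0.23, 0.21 and 0.19, with adjusted p-values of 0.318, 0.352 and 0.898.

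In SD against SA, NDUFA7 was followed at the upper end by ATP5ME (0.25, but 0.07 without SD replicate 3) and NDUFB1 (0.24), and NDUFA6 (-0.19), ATP5MC3 (-0.15) and NDUFS8 (-0.14) were lowest. Apart from NDUFA7, the smallest adjusted p of these was 0.566. In WT against SA the upper end held NDUFB1 (0.22) and NDUFB3 (0.22) after NDUFA7, and the lower end held COX6B2 (-0.19), NDUFA1 (-0.18) and NDUFA6 (-0.18). No adjusted p in that comparison was under 0.431.

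Against the empty vector, 4 calls were made among the subunits, and each was a small rise. In SA against V, 3 of 78 subunits rose and none fell (3.85%), where 7.17% of all genes tested were called and 3.88% were called higher in SA. In SD against V, 1 of 78 rose and none fell (1.28%), where 5.41% of all genes were called and 2.92% were called higher in SD. In WT against V, 0 of 78 were called with edgeR and 0 with DESeq2, where edgeR called 5.24% of all genes, and 6 subunits (7.69%) had an unadjusted p under 0.05, against 17.4% of all genes. In SA against V these were 15 subunits (19.2%) against 19.98% of all genes, and in SD against V 9 subunits (11.5%) against 17.4%. The subunits were thus called no more often than other genes. These 3 comparisons share the V libraries, so a value that stands out in V enters all of them.

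ATP5MC3 is a gene for the c subunit that makes up the rotating ring of ATP synthase (chromosome 2, 175176258 to 175184607, minus strand, build GRCh38). It was at 103, 109 and 97.8 CPM in V and 117, 114 and 129 CPM in SA. All SA libraries were above all V libraries, and the rise passed the test (log2 0.22, SE 0.0624, 95% interval 0.09 to 0.34, adjusted p = 0.0328). WT had 113, 103 and 108 CPM and SD 98.9, 111 and 114 CPM, both overlapping V. Among the subunits called in SA against V it was the only call that DESeq2 also made, at an adjusted p of 0.0499. The other members that are genes for the c subunit were not called in SA against V. ATP5MC1 averaged 88.5 CPM in V and 85.0 CPM in SA, and ATP5MC2 169 CPM in V and 180 CPM in SA.

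NDUFB8, an accessory subunit in the membrane arm of complex I (chromosome 10, 100523740 to 100530000, minus strand), was at 78.2, 76.2 and 71.2 CPM in V and 88.8, 85.1 and 87.00 CPM in SA. The groups did not overlap, and the rise was called (log2 0.21, SE 0.0639, 95% interval 0.08 to 0.34, adjusted p = 0.0450). SD held 77.8, 86.00 and 89.3 CPM and WT 80.6, 79.8 and 81.5 CPM. NDUFB8 too shares exons with a readthrough gene on its strand, at 2.58 to 6.41 CPM, and with both counted together the call stayed, at log2 0.21 and adjusted p = 0.0349. On the opposite strand, HIF1AN, at a mean of 82.8 CPM, shares 325 of the 1999 exonic bases of NDUFB8. That overlap was not dealt with, and whether strand was used in counting is not stated.

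UQCR11, a small subunit of complex III (chromosome 19, 1597169 to 1605473, minus strand), was at 43.4, 51.03 and 44.2 CPM in V and 60.02, 52.9 and 53.4 CPM in SA. The lowest SA library was above the highest V library, and the rise was called (log2 0.26, SE 0.0804, 95% interval 0.10 to 0.43, adjusted p = 0.0461). WT, at 43.3, 51.3 and 55.3 CPM, and SD, at 45.5, 49.8 and 58.9 CPM, overlapped both. Counted with its own readthrough gene, UQCR11 missed the threshold, at log2 0.25 and adjusted p = 0.0549.

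NDUFA2, an accessory subunit of the matrix arm of complex I (chromosome 5, 140638740 to 140647785, minus strand), was at 32.3, 34.4 and 33.98 CPM in V and 38.9, 41.8 and 42.3 CPM in SD. The SD libraries were all above the V libraries, and the rise was called (log2 0.29, SE 0.0845, 95% interval 0.12 to 0.47, adjusted p = 0.0393). SA was at a like level, 39.98, 38.6 and 39.9 CPM, but SA against V missed the threshold (log2 0.23, adjusted p = 0.0784). WT held 38.8, 34.7 and 31.8 CPM, overlapping V and SA, and its highest value lay just below the lowest of SD. Exons of NDUFA2 overlap those of TMCO6 and IK on the opposite strand, and whether strand was used in counting is not stated.

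**Figure D2:**
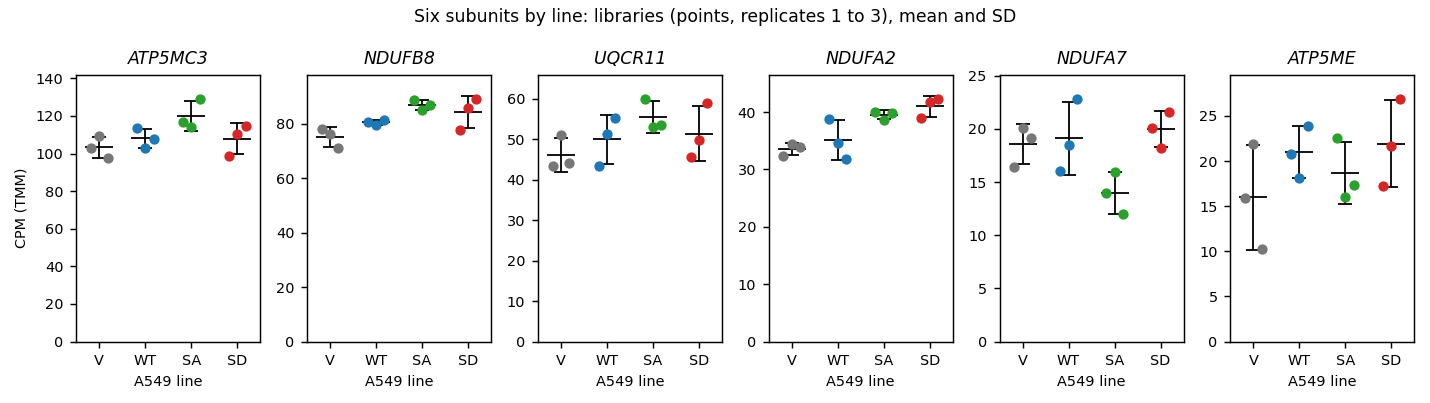
Level in CPM (vertical axis, from 0) of ATP5MC3, NDUFB8, UQCR11, NDUFA2, NDUFA7 and ATP5ME in each A549 line (horizontal axis). Points are the 3 libraries of a line in the order of their numbers, horizontal marks are means and bars are the SD. ATP5MC3, NDUFB8 and UQCR11 have all SA points above V, NDUFA7 has its lowest points in SA, and ATP5ME has its lowest point, 10.2 CPM, in V replicate 3.

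The calls rest on small differences, and single libraries decide them. Without V replicate 3, without V replicate 1 or without SA replicate 3, 0 subunits were called in SA against V, and without SA replicate 1 there was 1. NDUFB8 missed the threshold whichever of the 6 libraries was left out, at adjusted p-values of 0.0748 to 0.216. In SD against V, 4 subunits were called without SD replicate 1 and 0 without any of SD replicates 2 and 3 and V replicates 1 and 3. In WT against V, 1 subunit was called without WT replicate 2 and 1 without V replicate 2. With single libraries left out, NDUFA2 in SD against V ran from 0.0301 to 0.173 in adjusted p.

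The remaining differences from V were of like size and did not pass the test. NDUFA5, an accessory subunit of complex I, came closest in WT against V, at 37.6, 39.8 and 41.97 CPM in WT and 32.3, 33.2 and 33.2 CPM in V (log2 0.27, SE 0.0838, 95% interval 0.10 to 0.45, adjusted p = 0.0532). Its groups did not overlap. ATP5ME, the e subunit of the membrane part of ATP synthase, had the highest fold change in WT against V and in SD against V, at log2 0.38 and 0.46, with adjusted p-values of 0.220 and 0.147. Without V replicate 3 these were 0.14 and 0.22, and without V replicate 2 they were 0.67 and 0.75, at adjusted p-values of 0.0123 and 0.0199. Without SD replicate 1 the difference between SD and V also passed, at 0.0444. Its V libraries held 15.9, 21.9 and 10.2 CPM, and its WT libraries held 20.8, 18.2 and 23.9 CPM. These overlapped through V replicate 2, and V replicate 3 was the lowest of the 12 libraries. Of the 932 exonic bases of ATP5ME, 571 are shared with MYL5 on the opposite strand. MYL5 averaged 6.69 CPM over the V libraries, against 7.29 (WT), 8.06 (SA) and 9.21 CPM (SD). It is not known whether counting kept the strands apart, and the part of MYL5 in the ATP5ME differences was not tested. NDUFB1 was next in WT and SD against V, at 0.28 and 0.30. Its lowest value, 17.1 CPM, was again in V replicate 3, and without that library it was at 0.13 and 0.15. NDUFA3 was highest in SA against V at 0.29 (adjusted p = 0.0847), and V replicate 3 was once more the lowest, at 21.8 CPM. It was at 0.18 without that library and passed the test without V replicate 2 (adjusted p = 0.0287).

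At the lower end, NDUFA6 was at -0.12 in WT against V and -0.12 in SD against V. ATP5F1C was at -0.16 in SD against V and -0.08 in SA against V, with adjusted p-values of 0.117 and 0.447. The other lowest values were UQCRC1 (-0.06) and NDUFB6 (-0.05) in WT against V, NDUFA7 and NDUFV3 (-0.08) in SA against V, and UQCRFS1 (-0.08) in SD against V. None of these had an adjusted p under 0.05. As among the AHR lines, the 95% interval lay within a 1.5-fold change for 76 of 78 subunits in each comparison with V, the exceptions being COX6B2 in all of them, ATP5ME in WT and SD against V and NDUFA7 in SA against V.

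Promoters were set beside the expression values because the nuclear subunits are known to share binding sites for a few factors. RefSeq start sites of build GRCh38.p14 were matched by symbol for 67 of the 83 members. In the window from 250 bases before to 50 bases after a start, searched on both strands, 15 of these members (22.4%) held the NRF1 motif GCGCATGC, against 3.68% of the 27305 genes in the RefSeq table. The ETS motif CCGGAAG, which GABP reads, was in 20 members (29.9%) and 12.2% of all genes, and the YY1 motif AAGATGGC in 12 members (17.9%) and 3.52% of all genes. Any of these was in 37 of 67 members and 17.6% of all genes. The genes of the RefSeq table were not matched to the members in type or in level of expression. A match describes the letters of the window and shows no binding.

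Among the 4 subunits called against V, RefSeq starts were matched for NDUFA2, NDUFB8 and UQCR11. The bases upstream of these genes are shown with those of ATP5ME, the subunit with the highest fold change in 2 comparisons. Each is written 5′ to 3′ on the minus strand, which all of them use, and ends at the base before the gene span of the count table. Capitals mark matches to the 3 motifs. The ETS motif occurs in UQCR11 on both strands, at positions -106 to -100 and -86 to -80 counted back from the gene start, and ATP5ME holds the NRF1 motif at -24 to -17. The stretches shown of NDUFA2 and NDUFB8 hold none of the 3 motifs, and the full windows add the YY1 motif in NDUFB8 and the ETS motif in ATP5ME within the gene itself.
NDUFA2, chr5:140647786-140647880, minus strand: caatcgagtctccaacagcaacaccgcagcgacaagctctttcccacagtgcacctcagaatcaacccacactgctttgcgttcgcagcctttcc
NDUFB8, chr10:100530001-100530173, minus strand: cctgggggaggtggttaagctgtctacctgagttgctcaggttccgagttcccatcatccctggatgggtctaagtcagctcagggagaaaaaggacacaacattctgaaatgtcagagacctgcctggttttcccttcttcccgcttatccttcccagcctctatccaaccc
UQCR11, chr19:1605474-1605712, minus strand: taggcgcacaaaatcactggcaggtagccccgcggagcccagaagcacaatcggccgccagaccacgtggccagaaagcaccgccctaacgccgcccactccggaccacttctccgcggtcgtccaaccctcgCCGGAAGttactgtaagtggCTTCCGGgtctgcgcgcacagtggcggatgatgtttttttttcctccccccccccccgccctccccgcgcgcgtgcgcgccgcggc
ATP5ME, chr4:674331-674526, minus strand: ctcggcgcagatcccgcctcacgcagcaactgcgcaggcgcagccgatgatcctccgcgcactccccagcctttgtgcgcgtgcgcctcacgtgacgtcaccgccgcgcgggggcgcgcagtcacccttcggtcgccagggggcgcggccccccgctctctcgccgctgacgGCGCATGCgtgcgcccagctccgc

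More subunits had positive than negative fold changes against V in each of the lines with AHR constructs, by small amounts. In WT against V 60 of 78 had a positive log2 fold change (76.9%), in SA against V 49 (62.8%) and in SD against V 60 (76.9%), where all genes tested gave 50.5%, 49.6% and 50.8%. The medians over the subunits were 0.04, 0.05 and 0.06 on the log2 scale, against 0.0018, -0.0024 and 0.003 over all genes tested. Of the 12 tested complex IV subunits, 9, 7 and 12 were positive in WT, SA and SD against V, with medians of 0.05, 0.04 and 0.07. Of the 15 tested ATP synthase subunits, 14, 8 and 10 were positive in WT, SA and SD against V, with medians of 0.04, 0.01 and 0.02. Complex III had 7, 6 and 7 of 9 positive. Complex I had medians of 0.05, 0.07 and 0.07 in WT, SA and SD against V. Complex II, with 4 genes, had 0.0052, -0.03 and -0.0094.

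None of the 4 subunits of complex II passed the test in any comparison. Over all genes tested, 0.0803% to 7.17% were called in a comparison, so 4 genes without a call do not stand out. SDHA, the flavoprotein that oxidises succinate, had the smallest within-line coefficient of variation of any subunit tested, 2.16%, with V at 193 ± 3.43 CPM, WT at 187 ± 5.01, SA at 184 ± 4.23 and SD at 186 ± 3.51 CPM (mean and SD, n = 3). SDHB, the iron-sulfur subunit, was between 55.1 and 70.1 CPM over the 12 libraries, and the membrane anchors SDHC and SDHD were between 90.3 and 109.8 and between 43.6 and 56.6 CPM. SDHA was at log2 -0.07 in SA and -0.05 in SD against V (adjusted p = 0.501 and 0.691). Its SA libraries lay just below those of V, and the highest SD and the lowest V library were level at 189 CPM. The summed level of the complex was 403 ± 7.79 CPM for V, 403 ± 12.4 for WT, 395 ± 7.900 for SA and 399.9 ± 16.9 for SD.

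A list of 16 genes covers the catalytic core. It holds complex II, the core subunits of complex I and other subunits that carry electrons or catalyse ATP synthesis. None of the 16 was called in any of the 6 comparisons by edgeR or by DESeq2, and 4 of the 96 tests had an unadjusted p under 0.05. Over all genes, 7.31% to 19.98% of tests in a comparison reached that p and 0.0803% to 7.17% were called, so a list of 16 with no call is not set apart from other genes by it. Of the complex I core, NDUFV1, which binds NADH and the flavin, was between 126 and 154 CPM, and NDUFS1, which carries iron-sulfur clusters, was between 97.5 and 114 CPM. NDUFV2 and NDUFS3 were between 47.2 and 53.7 and between 42.1 and 51.6 CPM, and NDUFS8 was between 97.1 and 122 CPM. NDUFS7 was between 30.6 and 48.9 CPM, with its lowest value in V replicate 3 and the other 11 libraries at or above 40.3 CPM.

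In complex III, CYC1, which holds the heme that reduces cytochrome c, averaged 219.8 ± 12.2 CPM in V, with WT at 222 ± 6.12, SA at 240.1 ± 7.296 and SD at 223 ± 7.96 CPM. Its SA libraries were above all V libraries, at log2 0.13 and adjusted p = 0.157. UQCRFS1, the Rieske iron-sulfur protein, was between 227 and 278 CPM. CYCS was between 160.2 and 198 CPM. In ATP synthase, the catalytic ATP5F1B averaged 782 ± 15.1 CPM in V, with WT at 794 ± 6.72, SA at 776 ± 21.1 and SD at 763 ± 36.03 CPM, and its partner ATP5F1A was between 153 and 178 CPM. The median log2 fold change over these 16 genes ran from -0.03 in SD against WT to 0.03 in WT against SA.

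Some libraries stood lower or higher than others of their line for many subunits, by small amounts. V replicate 3 was the lowest of the 12 libraries for 26 of 78 subunits (33.3%) and SD replicate 1 for 13 (16.7%), where these libraries were lowest for 10.95% and 11.2% of all genes tested. SD replicate 3 was the highest for 20 subunits (25.6%) and WT replicate 3 for 17 (21.8%), against 7.58% and 7.96% of all genes. The median subunit stood at log2 -0.07 to its mean of 12 libraries in SD replicate 1 and at 0.07 in SD replicate 3. That span within SD was wider than every difference between lines in the medians given above, while the SA libraries, at 0.0069, 0.03 and -0.0073, lay closer together.

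**Figure D3:**
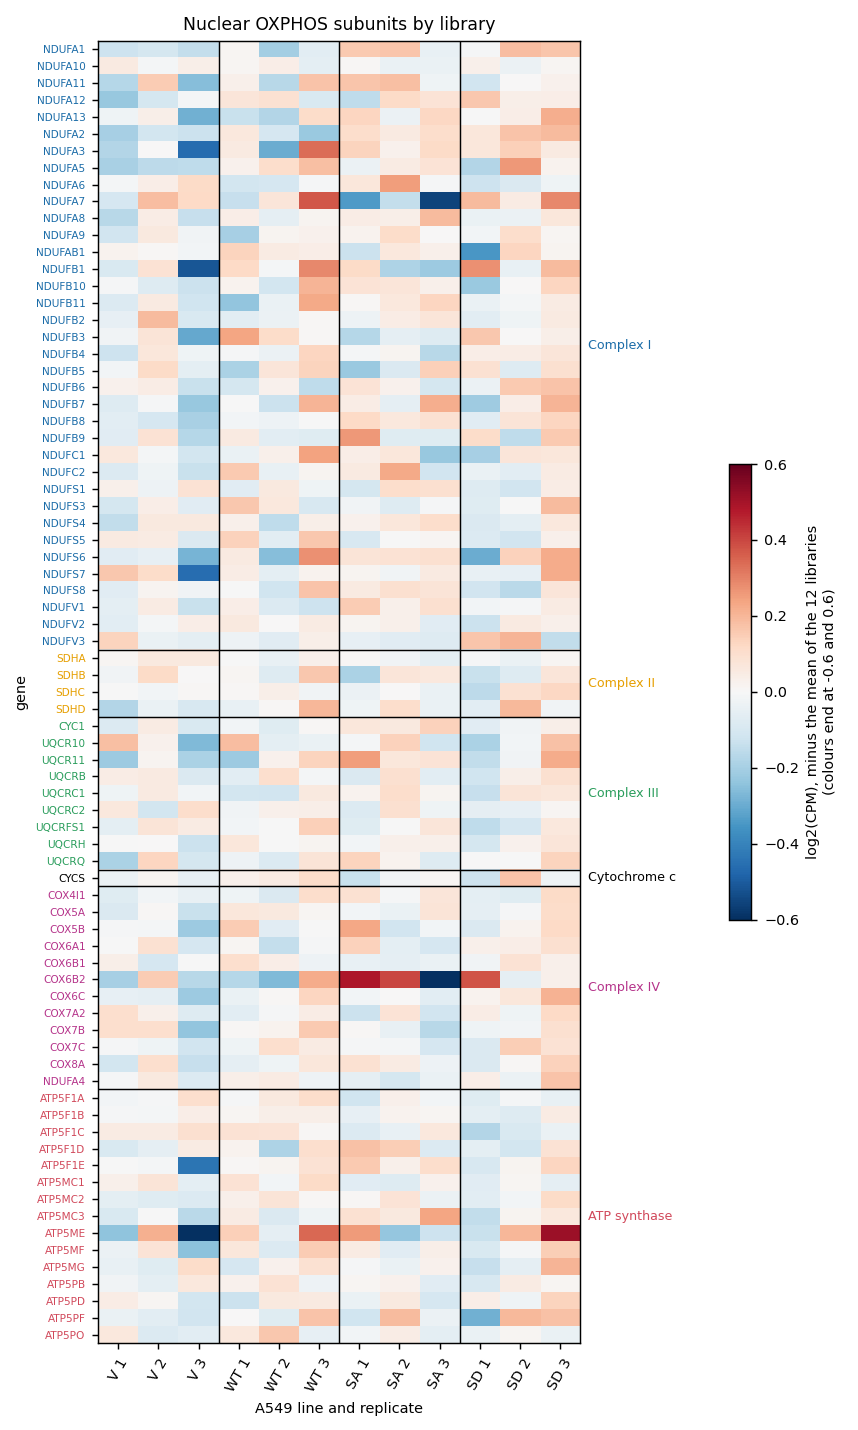
Levels of 77 of the 78 tested subunits (rows, grouped by complex) in the 12 libraries (columns, by line and replicate), as log2 CPM minus the gene's mean over the libraries, with blue below and red above that mean. V 3 and SD 1 are blue over many rows, WT 3 and SD 3 are red over many rows, and no line is one colour throughout. The strongest colours are in ATP5ME and COX6B2, whose values go beyond the ends of the scale, and in NDUFA7.

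Other classes of RNA moved with these libraries. Genes of the mitochondrial genome took 10.1% of counts in SD replicate 1, 9.698% in V replicate 1 and 9.07% in V replicate 3, the 3 highest shares, and these were also the 3 libraries with the lowest share of nuclear OXPHOS subunits (0.675%, 0.693% and 0.683%). Cytosolic ribosomal protein genes were lowest in the same 3 libraries, at 4.04%, 4.09% and 4.100%. In SD replicate 3 the subunits took 0.751%, the mitochondrial genes 7.92% and the ribosomal protein genes 4.75%. The 20 tested subunits with a canonical transcript under 600 nt had a median of log2 -0.13 to their mean in V replicate 3, and the 58 longer ones had -0.08. In SD replicate 1 these medians were -0.05 and -0.07. Without V replicate 3 the subunits had a median log2 fold change of 0.03 in WT against V, 0.03 in SA against V and 0.03 in SD against V. With SD replicate 1 left out as well, a choice made after the data were seen, it was 0.06 in SD against V, and 0 subunits were called. The part of these RNA classes in the comparisons with V was not tested.

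**Figure D4:**
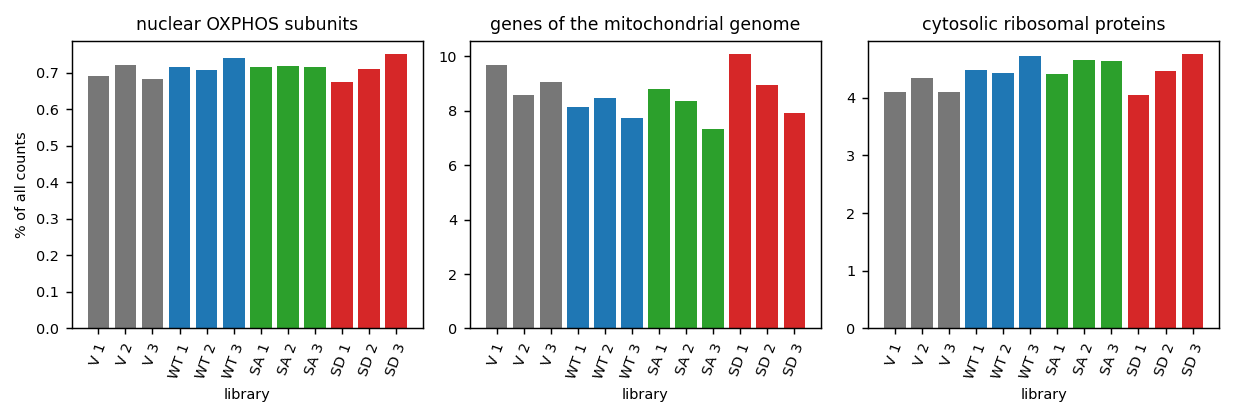
Share of all counts (vertical axis, percent, from 0) taken in each library (horizontal axis, coloured by line) by the nuclear OXPHOS subunits, by all genes of the mitochondrial genome and by cytosolic ribosomal protein genes. The subunit share goes from 0.675% in SD 1 to 0.751% in SD 3, and the mitochondrial share goes from 7.33% in SA 3 to 10.1% in SD 1.

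PPARGC1A, a coactivator of the genes for mitochondrial biogenesis, was lower in every line with an AHR construct. Over all genes tested, 5.24%, 7.17% and 5.41% were called in WT, SA and SD against V. Of 17 regulators tested, PPARGC1A fell in all 3 comparisons with V and no other was called there. Its V libraries held 9.87, 9.02 and 13.99 CPM. WT had 5.08, 7.11 and 5.01 CPM, SA 7.41, 4.78 and 6.89 CPM and SD 5.005, 6.22 and 5.79 CPM, and each of these lay below the lowest V library. PPARGC1A had a log2 fold change of -0.92 in WT against V (SE 0.202, adjusted p = 0.00475), -0.79 in SA against V (SE 0.201, adjusted p = 0.0134) and -0.95 in SD against V (SE 0.194, adjusted p = 0.00261). Without V replicate 3, the highest library, it missed the threshold in WT and SA against V, at adjusted p-values of 0.0634 and 0.146, and it passed in SD against V. Without SA replicate 2 it also missed it in SA against V, at 0.0998. Over the same comparisons the subunits had medians slightly above 0, as given above.

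HIF1A, the hypoxia-inducible factor, rose in SD against WT, from 591, 644 and 634 CPM in WT to 716, 736 and 725 CPM in SD (log2 0.22, SE 0.0522, adjusted p = 0.0477). It lost the call without any 1 library other than SD replicate 1. Of 54 assembly factors, which build the complexes and are not part of them, 1 was called in 6 comparisons. TMEM70, which assembles ATP synthase, fell in SA against V, from 33.01, 31.6 and 31.7 CPM to 26.5, 26.04 and 26.1 CPM (log2 -0.29, SE 0.0877, adjusted p = 0.0380), and it missed the threshold whichever library was left out. None of 17 genes of the tricarboxylic acid cycle was called by edgeR or DESeq2 in any comparison, and 8 of their 102 tests had an unadjusted p under 0.05. The 6 tested genes that belong with the subunits but lie outside the name patterns had no call by either tool either, with 4 of 36 tests at an unadjusted p under 0.05. Over all genes, edgeR called 0.0803% to 7.17% in a comparison, and 7.31% to 19.98% had an unadjusted p under 0.05.

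Mitochondrial DNA encodes 13 subunits, the partners of the nuclear subunits in complexes I, III and IV and in ATP synthase, and some of them were lower in WT and SA than in V. In WT against V 6 of 13 fell and in SA against V 6 of 13 fell, and 3 of 13 had positive log2 fold changes in each, MT-ND1 and MT-ND4L in both. Of all genes tested, 5.24% and 7.17% were called in these comparisons. The medians over the 13 were -0.14 and -0.15 on the log2 scale, while the nuclear subunits had medians of 0.04 and 0.05. MT-CO2, of complex IV, was at 8386, 7123 and 7591 CPM in V, 6270.1, 6812 and 6088 CPM in WT and 6799, 6398 and 5483 CPM in SA. Neither WT nor SA overlapped V, with log2 -0.27 (adjusted p = 0.000182) and -0.31 (adjusted p = 0.00124). MT-CO1, MT-CYB, MT-ND4 and MT-ATP6 were among the others that fell in both, by 0.15 to 0.21 on the log2 scale in WT against V. Fitted with all 12 libraries at once, 1 of 13 was called in WT against V, and DESeq2 called 1 in SA against V. Leaving out 1 library gave counts of 3 to 7 in WT against V and 3 to 8 in SA against V, the lowest in both without V replicate 1, and MT-CO1, MT-CO2 and MT-CYB were called each time.

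In SD against V, none of the 13 passed the test for a fall, and MT-ND6 and MT-ND1 of complex I rose (log2 0.29, adjusted p = 0.00960, and 0.22, adjusted p = 0.0353). Of all genes tested, 5.41% were called in that comparison. MT-ND6 also rose in SD against WT, from 419, 462 and 404 CPM to 626, 533 and 505 CPM (log2 0.37, SE 0.0682, adjusted p = 0.00626). All 13 had positive log2 fold changes when SD was set against WT or against SA, with medians of 0.13 and 0.17, but MT-ND6 was the only call in these 2 comparisons. Of all genes tested, 0.708% and 0.22% were called there. Leaving out 1 library gave 0 to 4 calls among the 13 in SD against WT and 0 to 3 in SD against SA. With the replicate block, given in the last section, more of the 13 were called in both, as were more of all genes. With a library left out, MT-ND6 in SD against V kept its call in 5 of 6 fits and MT-ND1 in 1 of 6, without SD replicate 3, with adjusted p-values of up to 0.208. The 3 SD libraries differed widely, with MT-CO2 at 7977, 6886 and 6144 CPM, and the count called in SD against V went from 0 to 5 when a library was left out, with 0 without V replicate 3 and 5 without SD replicate 1. Of those 5, MT-CO2, MT-CYB, MT-CO1 and MT-ND4 fell, by 0.19 to 0.24 on the log2 scale, and MT-ND6 rose, so the absence of falls in SD against V rests on SD replicate 1. MT-ND6 is the mitochondrial subunit encoded on the strand opposite to the rest, and the use of strand in counting is not stated. The libraries came from poly(A)-enriched RNA, and how far that step captured MT-ND6 in each library was not tested.

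**Figure D5:**
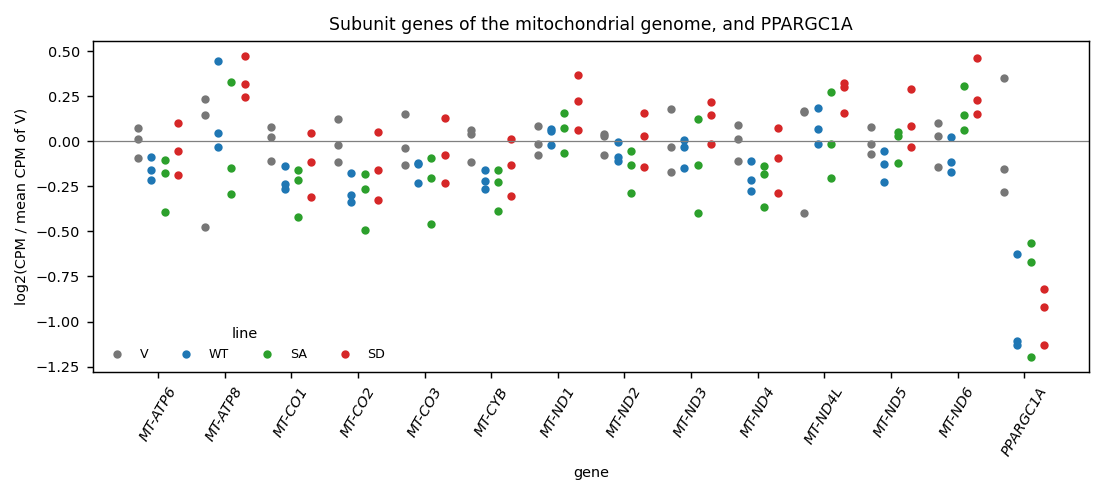
Log2 ratio of each library's CPM to the mean CPM of V (vertical axis) for the 13 subunit genes of the mitochondrial genome and for PPARGC1A (horizontal axis), with a point per library coloured by line. WT and SA points of MT-CO1, MT-CO2 and MT-CYB lie below 0, and the SD points of these genes lie on both sides of 0. All SD points of MT-ND1, MT-ND4L, MT-ND6 and MT-ATP8 lie above 0. For PPARGC1A all 9 points of the AHR lines lie below all 3 of V.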

How the data were processed

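RNA-seq libraries of 4 A549 lines, 3 each, were described by the expected counts per gene that the authors deposited. Per the labels and the submitters' processing notes, reads were trimmed with Trimmomatic 0.39 and quantified with RSEM on GRCh38. Whether counting used strand is not given in the sources used here. RSEM divides reads among overlapping genes, so the values of such genes depend on one another. A second deposited table holds the fold changes and p-values of the authors' own comparisons and was not used.

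Expected counts were rounded to whole numbers. In R 4.3.3, every comparison used only the 6 libraries of its lines, in edgeR 4.0.16 (filterByExpr with a minimum count of 10 and a minimum total of 15, TMM, quasi-likelihood F-test, two-sided), with Benjamini-Hochberg adjustment over all genes tested and a threshold of 0.05. Fold changes are log2 and written as the first line over the second. CPM are rounded counts scaled by the library total times its TMM factor, with factors taken over all 12 libraries. TPM used the canonical transcript or its coding part. The fit was tested on simulated data. Alternatives were DESeq2 1.42.0, its size factors, other filters, all 12 libraries in one fit, a replicate block and each library left out. Joint counts with readthrough genes, and leaving out V replicate 3 with SD replicate 1, were added after seeing the data.

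Named were called subunits, the 3 highest and 3 lowest fold changes per comparison, the catalytic core, tissue forms with their partners, the 3 highest levels per length, subunits that failed the filter, and up to 5 called genes of each other list. The values of 1 gene of the catalytic core are not reported here. The members and lists were chosen with earlier results of these data known.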

Additional observations from a re-analysis of the deposited data

How the results depend on the processing

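Direction held for the named genes with one exception, and the counts of called subunits did not hold. COX6B2 in WT against SA went from log2 -0.19 to 0.013 without SA replicate 1 (lowest -0.50 with 1 library left out). Of the named genes' values, 374 kept direction and side of the threshold under the settings other than leaving out 1 library, 30 lost and 4 gained a call. With a library left out, these numbers were 288, 54 and 5. With every gene of at least 1 count, 1 subunit was called in SD against SA and 2 in SD against V, among 153 and 973 genes in all. With that filter 252 genes were called between SD and WT, and 103 between WT and SA. DESeq2 called 1 in SA against V and 0 in SD against V, among 831 and 618 genes. With V replicate 3 and SD replicate 1 both left out, a setting added after seeing the data, 0 were called in SD against V. Leaving out 1 library gave 0 to 4 called subunits in SA against V, 0 to 4 in SD against V and 0 to 1 in WT against V, and medians of -0.044 to 0.038 in SD against SA, 0.024 to 0.086 in SA against V, 0.017 to 0.092 in SD against V and 0.020 to 0.083 in WT against V, each of the last 3 highest without V replicate 2. The cause was not tested. Library depth limits what can be said of COX6B2 and of the 5 subunits that failed the filter.

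Deviations of same-numbered libraries correlated at -0.0375 to 0.106 over 18 pairs. Among the AHR lines every such pair was positive, at 0.0171 to 0.0549, and pairs with V went both ways. Correlations this small, from deviations around means of 3 libraries, do not settle whether the replicate numbers pair the libraries. With the replicate block, 6 subunits were called in SA against V and 0 in SD against V, where 1345 and 664 of all genes were called, against 1069 and 806 without the block. Over all genes the block gave 245, 165, 25 and 507 calls in SD against WT, SD against SA, WT against SA and WT against V, where 105, 33, 12 and 774 were called without it. Of the 13 mitochondrial subunits it called 4 in SD against WT, 11 in SD against SA and 4 in SD against V. DESeq2 called 18 genes in WT against SA.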
